A study of Mus musculus with 4 samples.

Results

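Of 17476 genes in the deposited table, 10 genes of prostaglandin and leukotriene synthesis and sensing are described here. They were chosen by name as eicosanoid enzymes and prostaglandin E2 receptors, and all 10 passed the filter on low counts. They are Pla2g4a, Ptgs1, Ptgs2, Ptges, Ptges3, Alox5, Alox5ap, Lta4h, Ptger2 and Ptger4. The study asked which genes and pathways differ between Trem2 mutant and wild-type (WT) myeloid-derived suppressor cells (MDSCs), immature myeloid cells that hold T cells in check.

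There were 2 libraries from each genotype, both labelled with the strain C57BL/6: WT 1 and WT 2, and Trem2 mutant 1 and Trem2 mutant 3. The sources used here do not say how Trem2 was mutated. MDSCs of both genotypes were grown in culture from bone marrow and injected into male NRG mice, an immunodeficient strain without lymphocytes that keeps its own myeloid cells. The recipients were 6 weeks old when they received TRAMP-C1 prostate cancer cells under the skin, the MDSCs followed 4 weeks later, and tumours were taken 6 h after the injection. Tumours were digested for 45 minutes, and CD45+, CD11B+, GR1+ cells were sorted, a gate that names nothing to separate injected cells from the recipient's own. The labels do not say whether each library had its own animals or culture, so p-values reflect the spread between these libraries alone, and that spread may be technical.

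Library totals ran from 8037733 to 10306674 reads. Reads over Trem2 itself numbered 406 and 477 in WT and 191 and 195 in the mutants, a log2 fold change of −1.14 (SE 0.125, adjusted p = 0.00157 by edgeR's quasi-likelihood test). Of the genes behind the gate, Ptprc (CD45) and Itgam (CD11B) were well detected in every library. Ly6g and Ly6c2, which encode the antigens bound by GR1 antibodies, had only 52 and 66, and 247 and 227 reads in the WT libraries, against 1198 and 1143, and 3159 and 2625 in the mutant libraries. Markers of mature neutrophils summed to 8002 and 8597 CPM (CPM being the read count relative to the TMM-scaled library total) in WT and to 22969 and 21699 CPM in the mutant libraries, with 11 of 13 called higher by edgeR (7 without WT 1). Markers of immature granulocyte granules summed to 2643 and 2460 CPM in WT and to 20393 and 14736 CPM in the mutant libraries, with 10 of 13 called higher. Monocyte markers summed to 2363 and 2547 CPM in WT and to 7844 and 6259 CPM in the mutant libraries, with 8 of 12 called higher (3 without WT 1 and 5 without WT 2). Fibroblast and mural cell markers, which the gate should leave out, summed to 246 and 185 CPM in WT and to 548 and 491 CPM in the mutant libraries, with 5 of 8 called higher (3 without WT 2). Macrophage markers summed to 986 and 1082 CPM in WT and to 1255 and 994 CPM in the mutant libraries, with 5 of 13 called higher, C1qa, C1qb, C1qc, Apoe and Fcgr1 (1 without WT 1), and 1 lower, Trem2 itself. For other cell types edgeR called 1 of 3 endothelial markers higher and 1 lower, 1 of 2 epithelial and tumour cell markers lower, and 0 of 6 dendritic, 1 T and NK and 6 B cell markers, as did DESeq2 and limma-voom. At an unadjusted p under 0.05 edgeR had 1 dendritic and 2 B cell markers lower, and 8 macrophage markers higher and 3 lower. The lower macrophage markers included Cd68 (log2 fold change −0.31) and Adgre1 (−0.20), neither of which passed the adjusted threshold. Reads over Gm42418, a locus within ribosomal RNA repeats, made up 13.9% of Trem2 mutant 1 and at most 1.04% of any other library.

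Eicosanoids are short-lived lipid mediators made from arachidonic acid that phospholipases free from membranes. Cyclooxygenases turn it into prostaglandin H2, from which terminal synthases make prostaglandin E2, and 5-lipoxygenase with its activating protein turns it into leukotriene A4, which a hydrolase converts to leukotriene B4. Leukotriene B4 attracts neutrophils, while prostaglandin E2 acts through receptors that raise cyclic AMP in myeloid cells and is known as a mediator by which MDSCs restrain T cells.

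Of the 10 genes, 5 were higher in the mutant libraries and 0 lower (edgeR quasi-likelihood test, adjusted p under 0.05). Among all 14239 genes tested, 9.55% were called higher, 3.6% lower and 13.2% in either direction. The 5 were all 3 genes of leukotriene B4 synthesis (Alox5, Alox5ap and Lta4h), the constitutive cyclooxygenase gene Ptgs1 and the prostaglandin E synthase gene Ptges. Ptgs2, Ptges3, Pla2g4a and both receptor genes did not pass. DESeq2 called 3 higher and limma-voom 5, neither called any lower, and at an unadjusted p under 0.05 edgeR had 6 higher and 0 lower. Leaving out WT 1 left 2 calls, Alox5 and Alox5ap, and leaving out WT 2 left 2, Alox5 and Lta4h. The mutant libraries were both above the WT libraries for 7 of the 10 genes and both below for 1, and such separation was common, at 60.5% of all genes tested (28.9% above and 31.7% below). The median log2 fold change of the 10 was 0.48, beside −0.02 over all genes tested. In bulk samples, fewer cells of a type and less RNA per cell cannot be told apart, and the neutrophil, monocyte and fibroblast markers given above, and 5 of the macrophage markers, were called higher in the same libraries. Their part in these results was not tested.

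**Figure D1:**
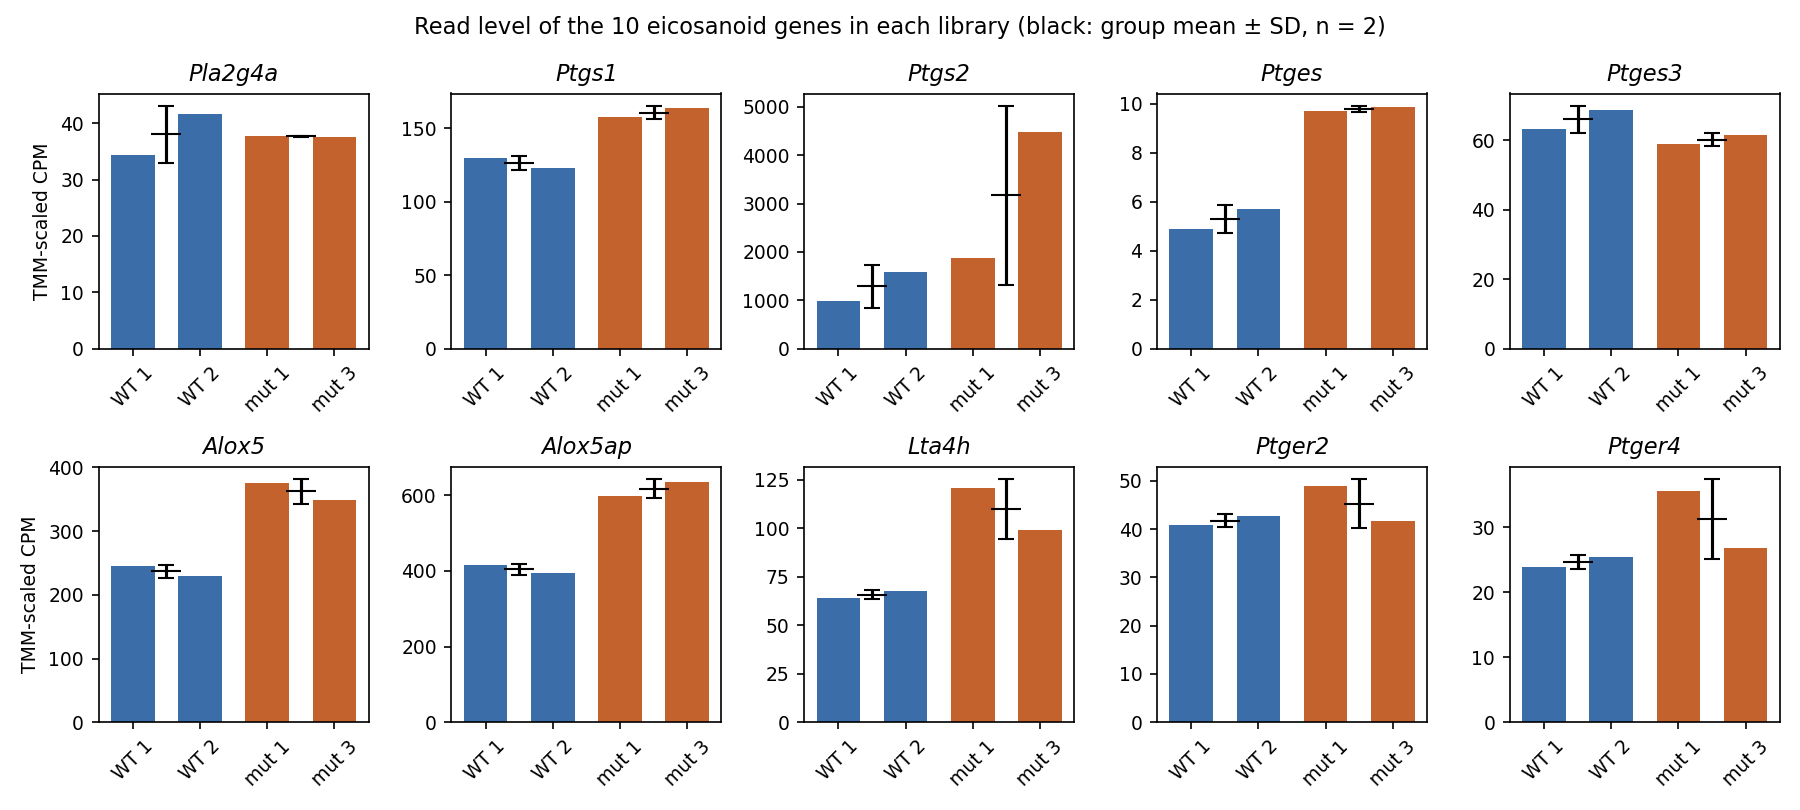
TMM-scaled read level (CPM, y axis, a separate scale for each gene) of the 10 genes in each library, blue for WT and orange for Trem2 mutant, with the group mean and SD (n = 2) in black. Alox5, Alox5ap, Lta4h, Ptgs1 and Ptges stand higher in both mutant libraries, while Ptgs2 spreads from 1868.5 to 4482 CPM between the mutant libraries.

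Per exon length, the 10 genes spanned from 1.25 to 979 CPM per kilobase of exon over the 4 libraries. In WT, Alox5ap and Ptgs2 were the highest, at 284 ± 10.5 and 281 ± 95.03 CPM per kilobase (SD, n = 2 each), and these levels lie within each other's spread. Alox5 followed at 57.8 ± 2.49, Ptgs1 at 32.6 ± 1.23 and Ptges3 at 29.8 ± 1.77 CPM per kilobase. The last pair lay close together, with Ptges3 in WT 2 at 31.0 and Ptgs1 in WT 2 at 31.7. Lta4h stood at 10.8 ± 0.376, Ptger2 at 8.04 ± 0.258, Pla2g4a at 5.94 ± 0.799 and Ptger4 at 3.71 ± 0.156 CPM per kilobase. Ptges was the lowest, at 1.35 ± 0.143 in WT and 2.49 ± 0.0331 in the mutant libraries. The levels used the union of annotated exons, so genes with long unused exons are understated. In the mutant libraries Ptgs2 was highest in Trem2 mutant 3 (979 CPM per kilobase), whereas Alox5ap was highest in Trem2 mutant 1 (422 against 408 for Ptgs2).

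**Figure D2:**
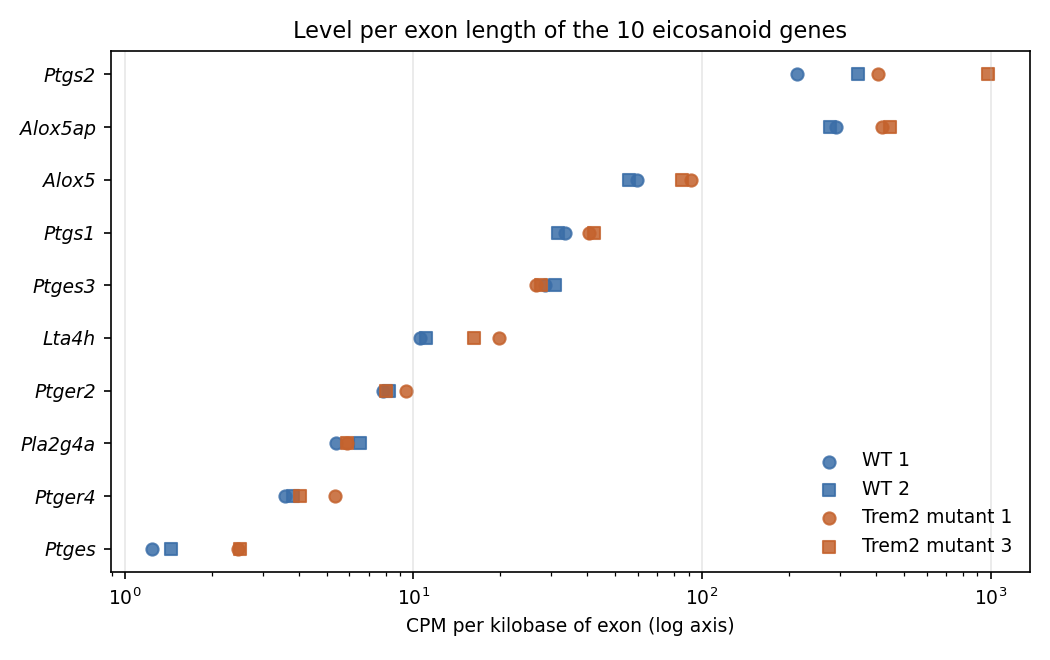
Level per exon length (CPM per kilobase of exon, x axis, log scale) of the 10 genes in the 4 libraries, ordered by their mean. Alox5ap and Ptgs2 lead in every library and Ptges is lowest, at 1.25 and 1.45 in WT and 2.47 and 2.52 in the mutant libraries.

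The promoter windows of the 4 called genes with an entry and of Ptgs2 are printed because these are the genes whose levels differ most between the groups. They come from RefSeq (GRCm38.p6), run from 250 bases before to 50 bases after the annotated start, and are written 5′ to 3′ on the gene's strand. Entries were found for 9 of the 10 genes, all but Alox5ap. Capitals mark matches, on either strand, to a TATA box (TATAAA), a GC box (GGGCGG), the core of a cAMP response element (CGTCA), an E-box (CACGTG), a C/EBP-type site (TTNNGNAA), an NF-kB-type site or a PU.1-type site (GAGGAA).
Alox5, chr6:116461129-116461428, minus strand: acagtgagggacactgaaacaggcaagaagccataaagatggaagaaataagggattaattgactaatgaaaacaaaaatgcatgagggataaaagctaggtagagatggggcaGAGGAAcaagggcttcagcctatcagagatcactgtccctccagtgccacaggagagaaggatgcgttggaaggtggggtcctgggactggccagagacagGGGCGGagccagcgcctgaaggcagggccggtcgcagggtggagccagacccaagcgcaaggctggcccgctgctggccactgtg
Lta4h, chr10:93453146-93453445, plus strand: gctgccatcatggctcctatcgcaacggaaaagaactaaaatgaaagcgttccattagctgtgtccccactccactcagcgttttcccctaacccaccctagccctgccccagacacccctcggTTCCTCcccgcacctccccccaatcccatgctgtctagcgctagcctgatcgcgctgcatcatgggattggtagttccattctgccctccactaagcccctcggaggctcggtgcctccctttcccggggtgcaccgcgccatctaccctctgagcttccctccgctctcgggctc
Ptgs1, chr2:36230176-36230475, plus strand: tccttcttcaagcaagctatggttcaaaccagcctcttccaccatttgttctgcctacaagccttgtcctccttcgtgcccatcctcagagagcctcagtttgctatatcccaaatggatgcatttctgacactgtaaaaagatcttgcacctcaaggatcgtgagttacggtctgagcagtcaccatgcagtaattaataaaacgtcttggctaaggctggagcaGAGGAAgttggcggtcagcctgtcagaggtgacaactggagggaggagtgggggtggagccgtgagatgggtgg
Ptges, chr2:30903248-30903547, minus strand: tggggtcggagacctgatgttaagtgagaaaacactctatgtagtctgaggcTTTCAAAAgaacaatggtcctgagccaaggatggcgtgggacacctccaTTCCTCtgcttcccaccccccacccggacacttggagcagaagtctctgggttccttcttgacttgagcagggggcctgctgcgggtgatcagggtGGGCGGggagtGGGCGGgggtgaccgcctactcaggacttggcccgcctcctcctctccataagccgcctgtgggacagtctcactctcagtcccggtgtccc
Ptgs2, chr1:150099781-150100080, plus strand: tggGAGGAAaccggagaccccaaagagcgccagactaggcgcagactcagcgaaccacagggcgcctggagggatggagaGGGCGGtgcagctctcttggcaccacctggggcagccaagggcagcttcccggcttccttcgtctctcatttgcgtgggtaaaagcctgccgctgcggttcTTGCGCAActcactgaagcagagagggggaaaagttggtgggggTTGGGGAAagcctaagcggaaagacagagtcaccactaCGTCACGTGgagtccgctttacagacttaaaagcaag

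GAGGAA, the core bound by PU.1 and its relatives, lay in all 5 printed windows and in no window of the other 4 genes with an entry, and 28.3% of all 32851 RefSeq windows of this length hold it. The motifs were chosen with the fold changes known, so this is a description only. In the Ptgs2 window, the cAMP core and the E-box overlap, beginning 13 and 16 bases after the annotated start, and the C/EBP-type match TTGCGCAA begins 69 bases before it. Of all windows, 20.8% hold the cAMP core, 7.15% the E-box and 40.7% a C/EBP-type match. The GC box was in the windows of Ptgs2, Alox5 and Ptges, and in those of Ptges3 and Ptger4, which were not called. It is in 35.7% of all windows. The cAMP core also lay in the Ptges3 window, and C/EBP-type matches also lay in the Ptges, Pla2g4a and Ptger2 windows. The TATA box, present in 13.6% of windows, and the NF-kB-type site, present in 1.2%, were in none of the 5.

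The leukotriene B4 branch was higher at each step. Alox5 encodes 5-lipoxygenase, the enzyme that commits arachidonic acid to leukotrienes (ENSMUSG00000025701, GRCm38 chromosome 6, 116410077 to 116461178, minus strand). Its read level was 244 CPM in WT 1 and 230 in WT 2, and 376 in Trem2 mutant 1 and 349 in Trem2 mutant 3. The groups were far apart next to the gap within each pair. Alox5 rose 1.53-fold, a log2 fold change of 0.61 (SE 0.0865, edgeR quasi-likelihood test, adjusted p = 0.00432). It was called without any single library, with log2 fold changes from 0.57 to 0.68.

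Alox5ap encodes the membrane protein that presents arachidonic acid to 5-lipoxygenase (ENSMUSG00000060063, chromosome 5, 149264767 to 149288153, plus strand). Its level was 415 and 393 CPM in WT 1 and WT 2, and 599 and 635 CPM in Trem2 mutant 1 and Trem2 mutant 3. Alox5ap rose 1.53-fold as well, with a log2 fold change of 0.61 (SE 0.0890, edgeR, adjusted p = 0.00487). Without WT 2 the log2 fold change was 0.57 and the call was lost (edgeR, adjusted p = 0.0587). The ratio of Alox5ap to Alox5 per exon length, which no scaling between libraries can alter, was 4.90 and 4.95 in WT and 4.61 and 5.26 in the mutant libraries, so the WT values lay between the mutant values. Alox5ap shares 189 exon bases with the antisense gene Gm19719, which had 1625 and 1609 reads in WT and 2186 and 2560 in the mutant libraries. Whether the counting used strand is unknown here, so reads over the shared bases cannot be assigned to 1 of these genes.

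Lta4h encodes the hydrolase that makes leukotriene B4 (ENSMUSG00000015889, chromosome 10, 93453411 to 93484875, plus strand). It stood at 64.2 and 67.4 CPM in WT 1 and WT 2, and at 121 and 99.1 CPM in Trem2 mutant 1 and Trem2 mutant 3. Both mutant libraries were above both WT libraries, though they differed from each other more than the WT pair did. Lta4h rose 1.67-fold (log2 fold change 0.74, SE 0.109, edgeR, adjusted p = 0.00512). Without WT 1 it was 0.70 and just missed the threshold (edgeR, adjusted p = 0.0507).

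Among the cyclooxygenase genes, Ptgs1 rose by a small amount and Ptgs2 did not pass despite a larger difference. Ptgs1 encodes the constitutive cyclooxygenase (ENSMUSG00000047250, chromosome 2, 36230426 to 36252272, plus strand). Its level was 130.0 and 123 CPM in WT 1 and WT 2, and 157 and 164 CPM in Trem2 mutant 1 and Trem2 mutant 3. The pairs were tight and did not overlap. The rise was 1.27-fold (log2 fold change 0.34, SE 0.0788, edgeR, adjusted p = 0.0283). Ptgs1 shares 148 exon bases with Gm43621 on the opposite strand, which had 158, 173, 196 and 202 reads in the libraries in this order. Leaving out WT 1 (log2 fold change 0.38) or WT 2 (0.31) ended the call, as did DESeq2 (0.36, adjusted p = 0.0710), and scaling by library totals alone turned the direction (−0.03). Markers of platelets, a cell type rich in this enzyme, summed to 53.7 and 62.2 CPM in WT and 68.2 and 54.7 CPM in the mutant libraries, and 0 of 8 tested were called in either direction by edgeR, DESeq2 or limma-voom (by edgeR, 1 was higher at an unadjusted p under 0.05).

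Ptgs2 encodes the inducible cyclooxygenase, a target of NF-kB and other inflammatory signals (ENSMUSG00000032487, chromosome 1, 150100031 to 150108227, plus strand). Read counts over it were 9002 in WT 1, 14569 in WT 2, 15598 in Trem2 mutant 1 and 41707 in Trem2 mutant 3. In CPM, these were 979, 1595, 1868.5 and 4482. Trem2 mutant 1 was close to WT 2, and Trem2 mutant 3 stood apart from the other 3 libraries. The mean was 2.47-fold higher in the mutant libraries, a log2 fold change of 1.30 (SE 0.385, 95% interval 0.41 to 2.20), and the test was not passed (edgeR, adjusted p = 0.0644). Without Trem2 mutant 3 the log2 fold change was 0.56 (edgeR, adjusted p = 0.0443), and without Trem2 mutant 1 it was 1.81 (edgeR, adjusted p = 9.37e-06). Each of those fits rests on 1 mutant library that is assumed to vary like the WT pair. Scaling by library totals alone gave 0.98, with an adjusted p of 0.0100 by edgeR. The ratio of Ptgs2 to Ptgs1 per exon length was 6.39 and 10.97 in WT and 10.1 and 23.2 in the mutant libraries, so the groups overlapped on this scale. Ptgs2 alone took 49.0% and 61.5% of the summed CPM of the 10 genes in WT, and 56.4% and 75.9% in the mutant libraries.

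Of the genes that make prostaglandin E2 from the cyclooxygenase product, Ptges was higher and Ptges3 was not. Ptges encodes the inducible microsomal synthase (ENSMUSG00000050737, chromosome 2, 30889471 to 30929863, minus strand). It had few reads, 45 and 52 in WT and 81 and 92 in the mutant libraries. In CPM these were 4.90 and 5.69 in WT 1 and WT 2, and 9.70 and 9.89 in Trem2 mutant 1 and Trem2 mutant 3. Both mutant values were clear of both WT values. Ptges rose 1.85-fold (log2 fold change 0.89, SE 0.207, edgeR, adjusted p = 0.0303). It was no longer called without WT 1 (0.78), without WT 2 (0.998), with DESeq2 (0.90) or when scaled by library totals alone (0.51).

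Ptges3 encodes the cytosolic synthase, also known as p23, a co-chaperone of HSP90 (ENSMUSG00000071072, chromosome 10, 128058954 to 128077272, plus strand). Its level was 63.2 and 68.7 CPM in WT and 58.8 and 61.4 CPM in the mutant libraries. Both mutant libraries were slightly below both WT libraries. The log2 fold change was −0.13 (95% interval −0.35 to 0.08) and did not pass (edgeR, adjusted p = 0.362), though scaled by library totals alone it was −0.50 and was called (edgeR, adjusted p = 0.0213). Per exon length, Ptges3 exceeded Ptges 22.9-fold and 21.4-fold in WT 1 and WT 2, and 10.7-fold and 11.005-fold in Trem2 mutant 1 and Trem2 mutant 3. This ratio does not depend on how libraries are scaled, and the groups were well apart. It rests on the few Ptges reads given above and was not tested. Groups that did not overlap were also common, at 60.5% of single genes tested.

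Pla2g4a, which encodes the cytosolic phospholipase A2 that frees arachidonic acid (ENSMUSG00000056220, chromosome 1, 149829618 to 149961290, minus strand), differed little. It stood at 34.4 and 41.6 CPM in WT and at 37.7 and 37.6 CPM in the mutant libraries, which lie between the WT values. The log2 fold change was −0.01, with a 95% interval from −0.29 to 0.27 (edgeR, adjusted p = 0.960). The ratio of Ptgs2 to Pla2g4a per exon length was 39.8 and 53.5 in WT, and 69.1 and 166 in the mutant libraries.

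Neither of the prostaglandin E2 receptor genes described here passed. The further receptor genes Ptger1 and Ptger3, from the list of other eicosanoid receptors, did not pass either (edgeR, adjusted p = 0.0920 and 0.627). Ptger1 stood at 124 and 123 CPM in WT and at 156 and 139 CPM in the mutant libraries (log2 fold change 0.25). Ptger2 and Ptger4 encode EP2 and EP4, both of which raise cyclic AMP. Ptger2 (ENSMUSG00000037759, chromosome 14, 44988195 to 45003820, plus strand) stood at 40.8 and 42.7 CPM in WT and at 48.9 and 41.7 CPM in the mutant libraries, so the groups overlapped. Its log2 fold change was 0.12 (95% interval −0.14 to 0.38, edgeR, adjusted p = 0.527). Ptger4 (ENSMUSG00000039942, chromosome 15, 5206661 to 5244187, minus strand) stood at 23.9 and 25.4 CPM in WT 1 and WT 2, and at 35.6 and 26.9 CPM in Trem2 mutant 1 and Trem2 mutant 3. Only Trem2 mutant 1 was clearly above the WT pair. The log2 fold change of Ptger4 was 0.34 (95% interval −0.01 to 0.69, edgeR, adjusted p = 0.180). Without Trem2 mutant 3 it was 0.55 and was called (edgeR, adjusted p = 0.00924), and without Trem2 mutant 1 it was 0.13. The ratio of Ptger4 to Ptger2 per exon length was 0.458 and 0.465 in WT and 0.569 and 0.503 in the mutant libraries. Ptger2 shares 246 exon bases with Gm17173, and Ptger4 shares 1015 with Gm15937 and 82 with Ttc33, all on the opposite strand. Ttc33 had 140 and 126 reads in WT and 119 and 140 in the mutant libraries.

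The other genes of eicosanoid metabolism and sensing comprised 59 in 5 lists, of which 35 could be tested. Of these, 9 were higher (25.7%, beside 9.55% of all genes), 0 were lower and 26 did not pass (edgeR, adjusted p under 0.05). DESeq2 and limma-voom called 7 and 9 higher and 0 lower, and at an unadjusted p under 0.05 edgeR had 12 higher and 1 lower. Their median log2 fold change was 0.19, beside −0.02 over all genes. Without WT 1, 4 were higher, and without WT 2, 5 were. Scaled by library totals alone, 3 were called higher and 11 lower.

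**Figure D3:**
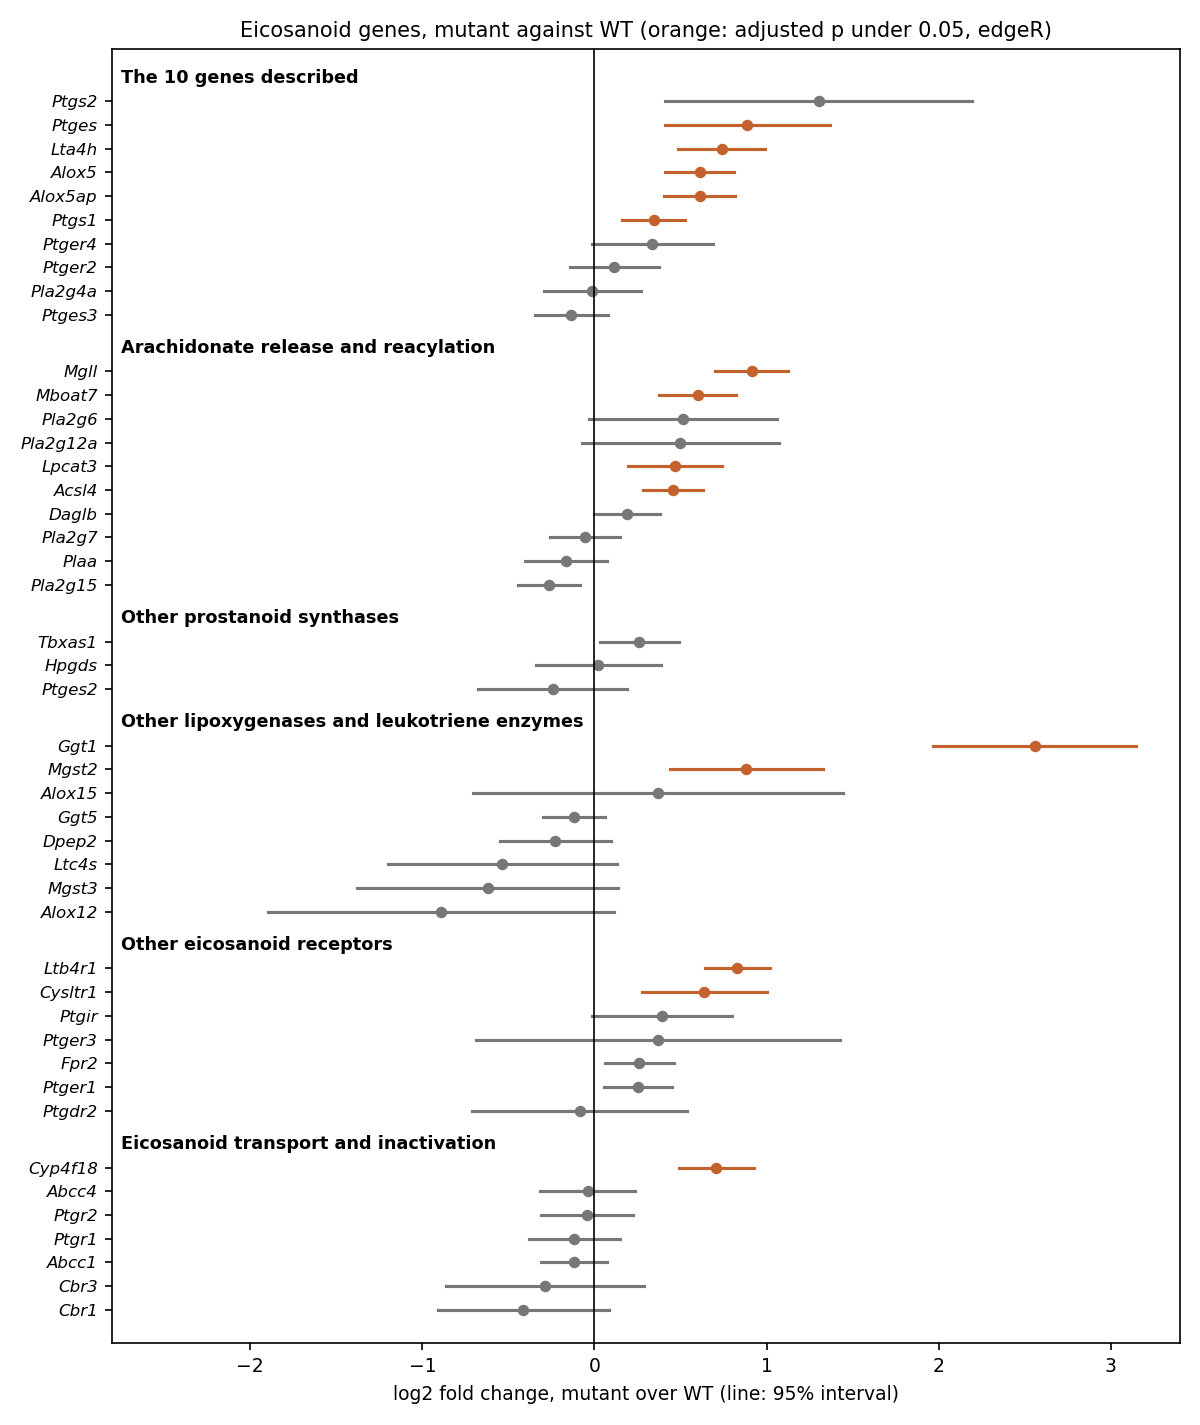
Log2 fold change of mutant over WT (x axis, dot) with its 95% interval (line) for the 10 genes and the 35 other tested genes of the pathway, orange where edgeR's adjusted p was under 0.05. All orange genes lie to the right of 0, led by Ggt1 at 2.56.

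In the leukotriene branch, the receptor and the clearing enzyme of leukotriene B4 rose with the enzymes that make it. Ltb4r1, the high-affinity receptor, stood at 87.9 and 86.6 CPM in WT and at 162 and 149 CPM in the mutant libraries. It rose 1.78-fold (log2 fold change 0.83, SE 0.0817, edgeR, adjusted p = 9.35e-04). Cyp4f18, which inactivates leukotriene B4 in mouse neutrophils, stood at 140.2 and 163 CPM in WT and at 246 and 248 CPM in the mutant libraries, 1.63-fold higher (edgeR, adjusted p = 0.00331). It shares 181 exon bases with Zfp961 on the opposite strand. Both calls held without any single library. Of the 7 tested genes of transport and inactivation, 1 was higher (14.3%, beside 9.55% of all genes), 0 were lower and the other 6 did not pass. Their median log2 fold change was −0.12, with 1 of 7 above 0, beside −0.02 over all genes. Scaled by library totals alone, 0 of these 7 were called higher and 3 lower, so the Cyp4f18 call was lost there. Of the 7 tested genes of other eicosanoid receptors, 2 were higher (28.6%), 0 were lower and 5 did not pass, with a median of 0.37.

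Of 8 tested genes of other lipoxygenases and leukotriene enzymes, 2 rose (25%, beside 9.55% of all genes) and 0 fell. Their median log2 fold change was −0.17, with 3 of 8 above 0, beside −0.02 over all genes. Without WT 1 or without WT 2, 1 rose. The 2 that rose in the reported fit act in the making of cysteinyl leukotrienes. Ggt1, a peptidase able to convert leukotriene C4 to D4, had 15 and 18 reads in WT and 94 in each mutant library. It rose 5.89-fold (log2 fold change 2.56, SE 0.254, edgeR, adjusted p = 9.59e-04). Mgst2, which can make leukotriene C4, rose 1.84-fold (edgeR, adjusted p = 0.0228), with log2 fold changes of 0.78 without WT 1 and 0.99 without WT 2 that were not called. Ltc4s, the main leukotriene C4 synthase gene, had 36 and 38 reads in WT and 26 and 23 in the mutant libraries and did not pass (log2 fold change −0.53, edgeR, adjusted p = 0.254). It is named beside the rule because its product is the one Ggt1 acts on. Ggt5, of the same list, is also named beside the rule. It stood at 88.8 and 89.4 CPM in WT and at 82.3 and 81.8 CPM in the mutant libraries. It did not pass (log2 fold change −0.12, edgeR, adjusted p = 0.344). Ggt1 was far lower, at 1.63 and 1.97 CPM in WT and 11.3 and 10.1 CPM in the mutant libraries. The receptor gene Cysltr1 rose 1.56-fold (edgeR, adjusted p = 0.0349). Its log2 fold change of 0.64 was 0.61 without WT 1, 0.66 without WT 2 and 0.47 without Trem2 mutant 3, none of them called. Markers of mast cells and basophils, cells that make these leukotrienes, summed to 133 and 132 CPM in WT and 136 and 116 CPM in the mutant libraries, with 0 of 5 tested called by edgeR, DESeq2 or limma-voom, also at an unadjusted p under 0.05, and Mcpt4, Cma1, Tpsb2 and Tpsab1 absent from the table. Eosinophil markers, from another such cell type, summed to 101 and 99.8 CPM in WT and 211 and 239 CPM in the mutant libraries, and 6 of 6 tested were higher (3 of 7 without WT 1 or without WT 2). Their part in the result was not tested.

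Of 10 tested genes that release arachidonic acid or return it to membranes, 4 rose (40%, beside 9.55% of all genes) and 0 fell, with a median log2 fold change of 0.46, beside −0.02 over all genes. Mgll, a lipase that frees arachidonic acid from an endocannabinoid, went from 36.5 ± 0.856 to 68.7 ± 1.46 CPM (SD, n = 2 each). It rose 1.88-fold (log2 fold change 0.91, SE 0.0913, edgeR, adjusted p = 0.00101), and was called without any single library. Acsl4, Lpcat3 and Mboat7 tie arachidonic acid to coenzyme A and put it back into phospholipids. Mboat7 rose 1.52-fold (edgeR, adjusted p = 0.00712), Acsl4 1.37-fold (edgeR, adjusted p = 0.00799) and Lpcat3 1.38-fold (edgeR, adjusted p = 0.0396). Without WT 1 none of the 3 was called, with log2 fold changes of 0.55, 0.47 and 0.50. Acsl4 (0.44) and Lpcat3 (0.43) were also lost without WT 2, and Lpcat3 (0.34) without Trem2 mutant 1. Lpcat3 and Mboat7 share exon bases with Emg1 and Tsen34 on the opposite strand. None of the 3 tested genes of other prostanoid synthases passed (median log2 fold change 0.02). Of them, edgeR, DESeq2 and limma-voom called 0, edgeR had 1 higher at an unadjusted p under 0.05, and 2 were called higher without Trem2 mutant 3.

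Of 10 tested regulators of these enzymes, 4 rose (40%, beside 9.55% of all genes) and 0 fell, and the median log2 fold change was 0.30, beside −0.02 over all genes. At an unadjusted p under 0.05 edgeR had 7 higher and 0 lower, and DESeq2 and limma-voom called 3 higher and 0 lower. Anxa1, an inhibitor of cytosolic phospholipase A2, went from 340 ± 7.68 to 679 ± 31.3 CPM (SD, n = 2 each), 1.996-fold higher (log2 fold change 0.997, SE 0.0889, edgeR, adjusted p = 6.47e-04). It was called without any single library. Cotl1, a partner protein of 5-lipoxygenase, rose 1.46-fold (edgeR, adjusted p = 0.0464), with a log2 fold change of 0.55 that was 0.31 without Trem2 mutant 1. Cebpb, a transcription factor gene that acts on Ptgs2, rose 1.33-fold (edgeR, adjusted p = 0.0246), and it shares 312 exon bases with Tmem189 on the opposite strand. Zfp36, whose protein shortens the life of Ptgs2 mRNA, stood at 498 and 687 CPM in WT 1 and WT 2, and at 822 and 1363 CPM in Trem2 mutant 1 and Trem2 mutant 3. It passed narrowly (1.84-fold, edgeR, adjusted p = 0.0497), and the log2 fold change went from 0.88 to 0.49 when Trem2 mutant 3 was left out. Without WT 1 or without WT 2, 1 of the 10 regulators was called, and Cotl1 (0.56 and 0.53), Cebpb (0.38 and 0.45) and Zfp36 (0.67 and 1.13) were not. Scaled by library totals alone, 2 were called higher and 1 lower.

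Genes that cyclic AMP is known to induce, in a list chosen with earlier results of these data known, were mostly higher. Whether EP2 or EP4 had a part in this was not tested, and Nr4a1 is also among the monocyte markers given above. Of 14 tested, 8 rose (57.1%, beside 9.55% of all genes) and 0 fell, and the median log2 fold change was 0.56, beside −0.02 over all genes. By edgeR, 11 were higher and 0 lower at an unadjusted p under 0.05, and DESeq2 and limma-voom called 6 and 8 higher and 0 lower. Many of them also answer to other stimuli, including tissue digestion. Thbs1, a matrix glycoprotein gene, went from 5942 ± 768 to 13579 ± 2327 CPM (SD, n = 2 each), 2.29-fold higher (edgeR, adjusted p = 0.00524), and its antisense neighbour Gm29233 shares 208 exon bases with it. Il1rn, the interleukin-1 receptor antagonist gene, rose 1.96-fold (edgeR, adjusted p = 0.00591). Pde4d, a phosphodiesterase gene that ends cyclic AMP signals, rose 2.33-fold (edgeR, adjusted p = 0.0111). Nr4a1, an early response transcription factor gene, stood at 212 and 255 CPM in WT 1 and WT 2, and at 370 and 740 CPM in Trem2 mutant 1 and Trem2 mutant 3, and rose 2.38-fold (edgeR, adjusted p = 0.0257). Its libraries had the same order as those of Ptgs2 and Zfp36, with Trem2 mutant 3 far above the rest, and without that library the log2 fold change went from 1.25 to 0.68. Without WT 1, 0 of the 14 were called by edgeR (8 were higher at an unadjusted p under 0.05), with log2 fold changes of 1.07 for Thbs1, 0.84 for Il1rn, 1.07 for Pde4d and 1.12 for Nr4a1. Nr4a1 was also lost without WT 2 (1.39). Scaled by library totals alone, 5 of the 14 were called higher.

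How far these differences depend on scaling was seen from the fit with library totals alone. There the all-gene median moved from −0.02 to −0.40 (log2), and 650 genes were called higher and 4365 lower, against 1360 and 513 in the reported fit. Among the 10 genes, 1 was then higher (Ptgs2) and 1 lower (Ptges3). The 3 genes of leukotriene B4 synthesis were no longer called, with log2 fold changes of 0.23 for Alox5 (edgeR, adjusted p = 0.216), 0.24 for Alox5ap (edgeR, adjusted p = 0.231) and 0.36 for Lta4h (edgeR, adjusted p = 0.0667). Relative to the all-gene median these genes stood at 0.63, 0.64 and 0.75. A change of scaling shifts all genes nearly alike, so such distances stay nearly the same by construction and say nothing of which scaling fits these libraries.

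**Figure D4:**
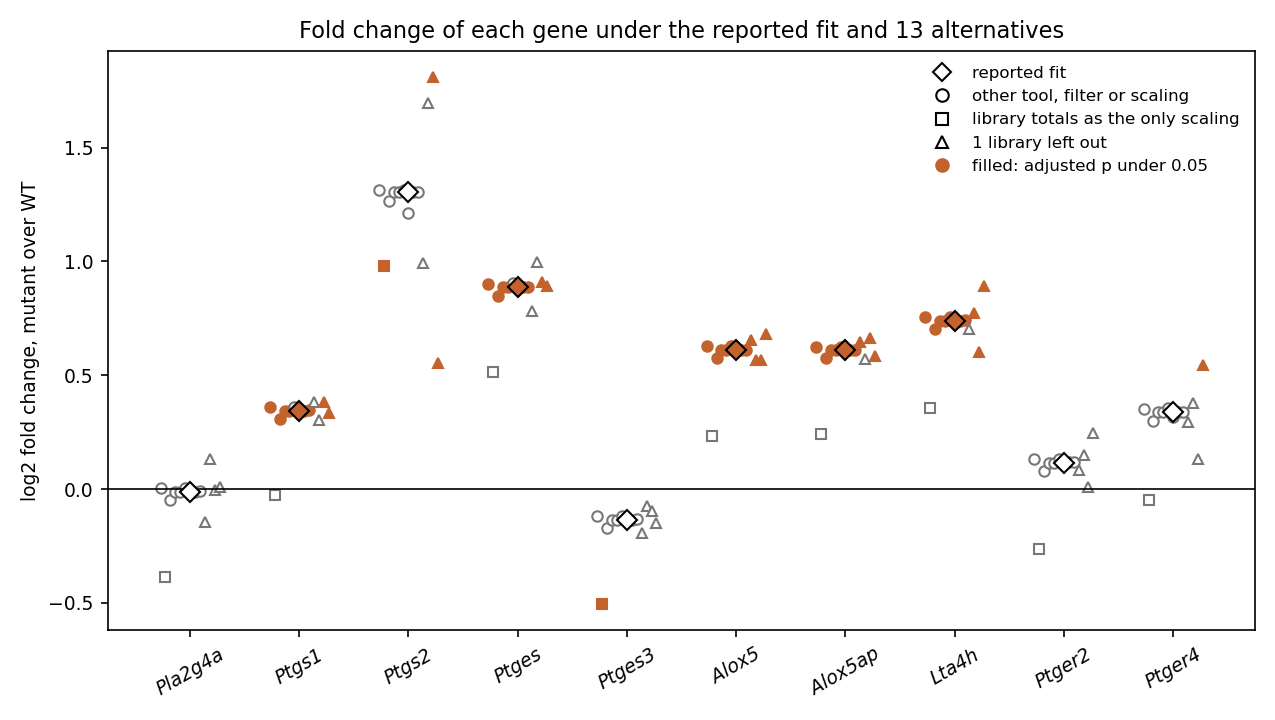
Log2 fold change of mutant over WT (y axis) of each of the 10 genes (x axis) under the reported fit (diamond) and 13 alternatives, filled where the adjusted p was under 0.05. Alox5 was called in 12 of the 13, Alox5ap and Lta4h in 11, Ptgs1 and Ptges in 9, Ptgs2 in 3, Ptges3 and Ptger4 in 1, and Pla2g4a and Ptger2 in 0, and all 10 values are lower when scaled by library totals alone (squares).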

How the data were processed

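The authors deposited raw read counts for 4 libraries, indexed by Ensembl gene and not normalized. The submitters' processing notes list FastQC, STAR 2.5.2a, DESeq2 and GRCm38 (mm10). The counting tool, its strand setting and its annotation were not named there. Of 17476 genes in the table, none had fewer than 11 reads in all, and 17422 IDs matched GENCODE M21, which gave names, positions and exon lengths. The column numbered 3 of the mutant matches no label number, so it was used as a mutant library without a number of its own. Within each genotype the libraries differed beyond sampling noise (the median squared difference was 2.01 times the noise in WT and 6.21 times in mutant), so each was counted. Each pair was scaled by its read totals there, so differences in composition enter this measure. Gm42418 took 13.9% of Trem2 mutant 1 and 0.418% of Trem2 mutant 3, and its part in the 6.21 was not tested.

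The fit used edgeR 4.0.16 in R 4.3.3: filterByExpr (14239 genes kept), TMM scaling, and the quasi-likelihood test of mutant against WT in its default form, two-sided, with 1 term for genotype and Benjamini-Hochberg adjustment over all genes tested at 0.05. Standard errors come from the F statistic (log2 fold change over its root), and 95% intervals use the test's degrees of freedom. CPM are TMM-scaled, with mean and SD over 2 libraries. Alternatives were RLE, upper-quartile or no scaling beyond library totals, no filter or a stricter one, DESeq2 1.42.0, limma-voom (limma 3.58.1), the bias-adjusted quasi-likelihood form, leaving out noncoding and mitochondrial genes, and leaving out each library. The edgeR test was tested on simulated data.

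The 10 genes, 7 lists of other pathway genes and 13 lists of cell type markers were chosen with earlier results of these data known. From each list of other genes, those past the threshold are named, at most the 4 with the lowest p. Ltc4s, Ggt5, Ptger1 and Ptger3 were named outside this rule, after their values were seen, and so were the overlapping neighbours.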

Additional observations from a re-analysis of the deposited data

How the results depend on the processing

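No paired analysis was possible because the columns of both genotypes share only the number 1. Of 130 fold changes of the 10 genes under 13 alternatives, 106 kept their direction and side of the threshold, 12 kept direction and lost the call, 5 gained one and 7 changed sign. With library totals alone these were Ptgs1 (−0.0269, a lost call), Ptger2 (−0.264) and Ptger4 (−0.0476). Pla2g4a, at −0.01 in the reported fit, was 0.0037 with RLE scaling and with DESeq2, and −0.144 to 0.131 when leaving out 1 library. With library totals alone Pla2g4a kept its sign, at −0.384, and was not called. For 21 other called genes, 222 of 273 values were unchanged in this sense and 51 calls were lost. Against 5 of the 10 genes called higher and 0 lower, library totals alone gave 1 and 1, DESeq2 gave 3 higher, and leaving out 1 library gave 2 to 7 higher. Against 9 and 0 of the other eicosanoid genes, library totals gave 3 higher and 11 lower, upper-quartile scaling 1 lower, and leaving out 1 library 4 to 12 higher and 0 to 1 lower. Of the regulators, against 4 higher and 0 lower, library totals gave 2 and 1, upper-quartile scaling 2 higher, and leaving out 1 library 1 to 6 higher. Of the cyclic AMP genes, against 8 higher, library totals gave 5 and leaving out 1 library 0 to 11. Over all genes, against 1360 higher and 513 lower, library totals gave 650 and 4365, DESeq2 gave 198 lower, and leaving out 1 library gave 489 to 2090 higher and 92 to 912 lower. Of the calls, 72.6% were higher in the reported fit, 84.3% with DESeq2 and 13% with library totals. Causes were not tested. With 2 libraries per genotype, 2 residual degrees of freedom and few reads over Ptges, modest differences of low genes could be missed.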

Other observations

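The antisense and noncoding neighbours of Ptgs2 were read at low levels. Ptgs2os had 9 and 33 reads in WT 1 and WT 2, and 32 and 30 in Trem2 mutant 1 and Trem2 mutant 3. Ptgs2os2 had 100 and 149 reads in WT 1 and WT 2, and 112 and 199 in Trem2 mutant 1 and Trem2 mutant 3. For both, WT 1 was the lowest library, as it was for Ptgs2 itself. The copies named Ptges3-ps and Ptges3l had 5 to 9 reads in any library, against 491 to 628 over Ptges3. Without Ptgs2, the summed level of the other 9 genes was 1020 and 998 CPM in WT and 1443 and 1424 CPM in the mutant libraries. On this TMM scale each pair was tight and the pairs did not overlap, a separation that 60.5% of single genes tested also had. The sums depend on the scaling. With library totals alone Alox5ap and Alox5, the highest of the 9 in CPM, had log2 fold changes of 0.24 and 0.23 and were not called.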
